A study of Arabidopsis thaliana with 9 samples.

Results

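The 89 loci described here had more transcript in seedlings of both altered Arabidopsis thaliana lines than in wild type. They were chosen from 25199 loci by their measured values: with y = log2(FPKM + 1), all 3 RAV1 over-expression libraries and all 3 bes1-D libraries exceeded all 3 En2 wild type libraries, the mean of y was at least 0.6 above En2 in each line, and the highest group mean was at least 5 FPKM. FPKM counts sequenced fragments, divided by the length of the transcript and by the mapped total of its library. The study sequenced RNA from whole seedlings, 7 days old, grown without treatment on agar plates with 16 h of light a day, in 3 biological replicates for each of 3 groups. The groups were a RAV1 over-expression line, bes1-D, and the En2 (Enkheim) wild type, whose accession name all 3 groups carry as their genotype. No source used here names the promoter that drives RAV1, the number of independent lines or any pooling of plants. The series title asks about genes that RAV1 and BES1 regulate in opposite directions, and the loci below are those that lay on the same side of wild type in both lines.

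RAV1 is a transcription factor with an AP2 and a B3 DNA-binding domain, known for restraining growth. BES1 is a transcription factor that carries brassinosteroid signals to growth genes, and bes1-D is a gain-of-function allele whose product is stabilised. The loci higher in both lines include genes of metal transport, small defence peptides, seed and desiccation proteins, cell wall enzymes, hormone metabolism and afternoon or cold phasing.

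RAV1 over-expression alone met the conditions at 1303 of 15777 loci with a highest group mean of at least 5 FPKM (8.26%), bes1-D alone at 311 (1.97%), and both at the 89 members (0.564%). The members were 6.83% of the RAV1 over-expression set and 28.62% of the bes1-D set. Both comparisons use the same En2 libraries, and shared controls favour this class: an En2 library that reads low at a locus raises both differences. The differences from En2 chose the members and are therefore given as a description with no test. They ran from 0.62 to 5.42 in RAV1 over-expression (median 1.22) and from 0.60 to 3.72 in bes1-D (median 0.80). In bes1-D 43 members lay under 0.8, against 14 in RAV1 over-expression, and 17 members reached 1 in both lines. AOC2 (0.60 in bes1-D) and RBOHD (0.61 in bes1-D) lay just inside the limit, while CAM9 (0.598 in bes1-D) and AT3G26760 (0.599 in bes1-D) lay just outside. A further 525 loci had no overlap with En2 in either line but a difference under 0.6 in at least 1 of them. The class depended on single libraries: it held 148 loci without bes1-D replicate 1 (86 of them among the 89) and 151 without En2 replicate 3 (82 of the 89).

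RAV1 itself had 1064, 756 and 1426 FPKM in replicates 1 to 3 of RAV1 over-expression, a mean of 1082 ± 335 (SD, n = 3 here and below), against 48.5 ± 13.4 FPKM in bes1-D and 84.1 ± 13.9 FPKM in En2. BES1 had 62.2 ± 10.6 FPKM in RAV1 over-expression, 153.5 ± 25.2 FPKM in bes1-D and 107.7 ± 13.1 FPKM in En2. Depth is unknown, because only FPKM were used. In whole seedlings, fewer cells of a type and less RNA per cell cannot be told apart. Summed levels of 6 green tissue markers were 21580 to 30560 FPKM in RAV1 over-expression, 46200 to 50590 in bes1-D and 42170 to 44980 in En2, and those of 8 root markers were 64.2 to 73.6, 38.3 to 44.4 and 64.0 to 69.0 FPKM in the same groups. The root sum hides moves in opposite directions. All RAV1 over-expression libraries exceeded all En2 libraries at 3 of the 8 root markers. PHT1;1, however, averaged 0.42 FPKM in RAV1 over-expression, 1.22 FPKM in bes1-D and 8.6 FPKM in En2. NRT2:1 averaged 1.38, 3.22 and 9.72 FPKM in the same groups. None of the green tissue or root markers was at 0 in every library, and their part in the levels below was not tested.

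**Figure D1:**
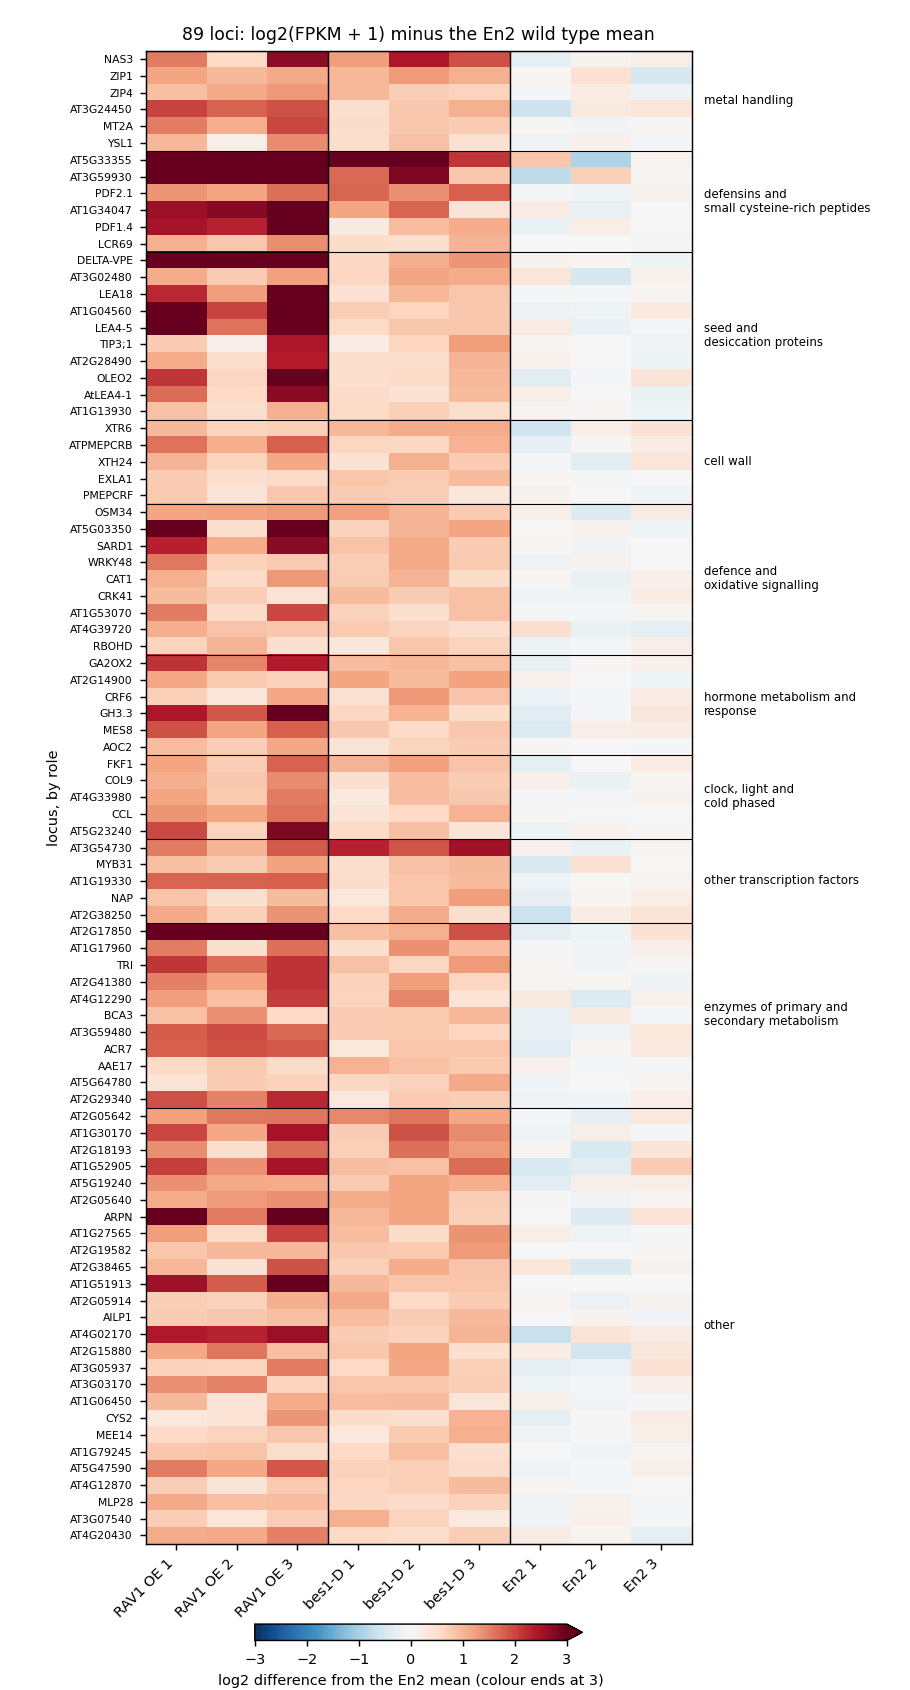
Each row is 1 of the 89 loci, grouped by role, and each column 1 library; colour gives log2(FPKM + 1) minus the En2 mean of that locus. RAV1 over-expression replicate 2 is paler than replicates 1 and 3 in the seed and desiccation rows, and the largest bes1-D means lie in AT5G33355, AT3G54730 and NAS3.

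The lines were then compared with each other, a difference for which the rule sets no limit although it used the same libraries. With limma on log2(FPKM + 1) and Benjamini-Hochberg adjustment over 19740 loci, 28 of the 89 members were higher in RAV1 over-expression, relative to bes1-D (31.5%), 1 was lower (1.12%) and 60 were not called. All 89 passed the filter of 1 FPKM in 3 libraries, 1 of them (AT1G51913) through RAV1 over-expression alone. Among all loci tested 28.0% were called higher and 10.6% lower. Among those with a highest group mean of at least 5 FPKM the shares were 31.0% and 11.4%. On the deposited scale the share of members called higher is therefore near the background, and the share called lower is under it. Counts of called genes in the roles and lists below are to be read beside these shares. At an unadjusted p under 0.05 there were 36 members higher and 3 lower. The rule sets every member apart from En2, so only overlap between the lines is free to vary. All RAV1 over-expression libraries lay above all bes1-D libraries at 27 members (30.3%), and all lay below at 2 (2.25%). Over loci with a highest group mean of at least 5 FPKM these shares were 40.9% and 13.7%. The median log2 difference, RAV1 over-expression minus bes1-D, was 0.36 over the members and 0.19 over all loci tested. Of the 60 members not called, 46 had a 95% interval of the difference that stayed within 1 log2 unit of 0 on both sides. The split depended on the scaling between libraries, which the sources used here do not describe. With trimmed-mean scaling the median of all loci moved to 0.03. Of all calls 45.6% were then higher in RAV1 over-expression, against 72.6% on the deposited scale. Of the 89 members 25 were higher and 5 lower, against 2526 and 3018 of 19726 loci. With quantile normalization 27 members were higher and 3 lower, against 2712 and 2965 of 19740 loci. In both settings the share called higher was larger among members than among all loci. Without RAV1 over-expression replicate 2, 42 of 88 members tested were called higher, against 4885 of 19550 loci. The share of members was not near the background in that fit.

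**Figure D2:**
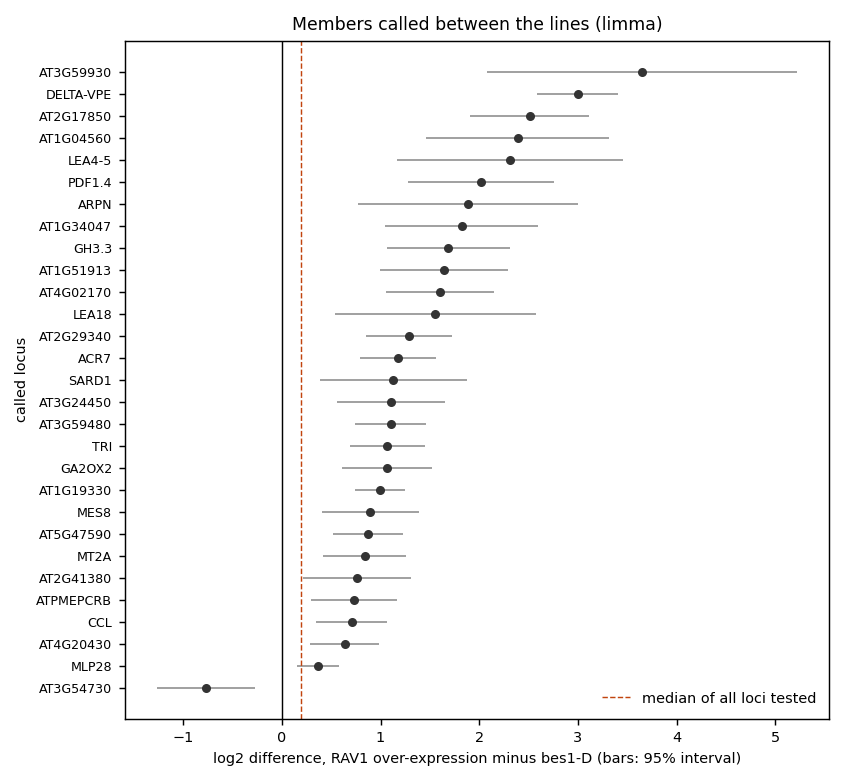
Points are log2 differences, RAV1 over-expression minus bes1-D, of the 29 members called between the lines, with 95% intervals (limma); the dashed line is the median of all loci tested. AT3G59930 and DELTA-VPE lie farthest to the right, and AT3G54730 is the member to the left of 0.

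Genes of metal handling made up 6 of the members, and 4 of them were not called between the lines. Of loci with a highest group mean of at least 5 FPKM, 42.5% were called in either direction. NAS3, which makes the metal chelator nicotianamine, had 13.8, 6.62 and 31.2 FPKM in RAV1 over-expression, 11.1, 26.3 and 18.1 FPKM in bes1-D, and 3.2, 4.42 and 4.68 FPKM in En2 (replicates 1 to 3 in this order here and below). Its lowest value in either line, RAV1 over-expression replicate 2, was above every En2 library, as the rule requires, and the 2 lines overlapped. ZIP1, a zinc transporter, had 10.03, 8.48 and 9.63 FPKM in RAV1 over-expression, 8.73, 10.7 and 9.10 FPKM in bes1-D, and 4.07, 5.54 and 2.46 FPKM in En2. Its difference between the lines was -0.02 on the log2 scale (95% interval -0.47 to 0.43). ZIP4, another zinc transporter, had 8.89, 10.6 and 12.0 FPKM in RAV1 over-expression, 9.52, 7.79 and 7.38 FPKM in bes1-D, and 4.07, 5.11 and 3.72 FPKM in En2. YSL1, which moves metal-nicotianamine complexes across membranes, had 37.1, 20.8 and 50.4 FPKM in RAV1 over-expression, 26.9, 34.3 and 25.2 FPKM in bes1-D, and 16.8, 20.3 and 17.7 FPKM in En2. ZIP4 and YSL1 were not called between the lines, but without RAV1 over-expression replicate 2 YSL1 was called higher there (log2 difference 0.58, limma adjusted p = 0.0221).

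MT2A, a metallothionein that binds metal ions through its cysteines, was among the most abundant members. It had 1626, 1199 and 2252 FPKM in RAV1 over-expression, 815, 986 and 954 FPKM in bes1-D, and 577, 525 and 577 FPKM in En2, and the lines did not overlap. It was higher in RAV1 over-expression, relative to bes1-D, by 0.84 ± 0.19 on the log2 scale (SE, limma adjusted p = 0.00748). AT3G24450, annotated as a heavy metal transport and detoxification protein, had 24.1, 19.9 and 21.9 FPKM in RAV1 over-expression, 7.75, 9.65 and 11.9 FPKM in bes1-D, and 2.96, 6.40 and 6.84 FPKM in En2, and it was also called (1.11 ± 0.24, adjusted p = 0.00685).

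Relatives of these genes were counted from lists added after the values were seen. Of 11 ZIP and IRT transporters tested, ZIP1 and ZIP4 were members, 6 were called higher in RAV1 over-expression, relative to bes1-D, and 1 lower. ZIP5 averaged 27.1 FPKM in RAV1 over-expression, 11.4 FPKM in bes1-D and 7.82 FPKM in En2, with 0.50 above En2 in bes1-D. NAS3 was the member among 4 nicotianamine synthases: NAS1 averaged 21.2 FPKM in RAV1 over-expression, 98.7 FPKM in bes1-D and 119 FPKM in En2, and NAS4 averaged 8.04, 22.8 and 26.2 FPKM in the same groups. Both were lower in RAV1 over-expression, relative to bes1-D (log2 differences -2.17 and -1.51, limma adjusted p = 6.42e-05 and 0.00556). Among 8 YSL transporters YSL1 was the member, and YSL3 averaged 92.9 FPKM in RAV1 over-expression, 83.4 FPKM in bes1-D and 56.1 FPKM in En2, with 0.73 and 0.56 above En2. MT2A was the member among 4 metallothioneins, of which 2 others were called lower in RAV1 over-expression, relative to bes1-D. AT3G24450 was the member among 34 heavy metal transport and detoxification proteins tested. Of 6 zinc regulators and exporters tested none was a member. The list of iron deficiency genes, which was not among those added, held no member among 18 tested.

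The zinc deficiency response element, to which the factors bZIP19 and bZIP23 are known to bind, was looked for after the metal genes had been seen. The search used the 8 letters TGTCGACA, which are the same on both strands, and set no condition on the letters beside them. They were found in the 500 bases before the gene start of 3 of 89 members (3.37%) and of 0.521% of 25134 promoters of loci in the table. The windows that hold these 8 letters are shown with them in capitals, 5′ to 3′ on the gene's strand, from the RefSeq assembly TAIR10.1: ZIP4 at chr1:3667140-3667219 (minus strand), GA2OX2 at chr1:10537261-10537340 (plus strand) and AT1G34047 at chr1:12391256-12391335 (minus strand). A match is a description of these letters and not a shown binding site.
ZIP4: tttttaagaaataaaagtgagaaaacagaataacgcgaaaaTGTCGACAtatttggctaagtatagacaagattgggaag
GA2OX2: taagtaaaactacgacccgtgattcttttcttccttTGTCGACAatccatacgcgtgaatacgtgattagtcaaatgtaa
AT1G34047: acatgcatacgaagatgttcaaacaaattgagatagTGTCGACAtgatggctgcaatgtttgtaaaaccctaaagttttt

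**Figure D3:**
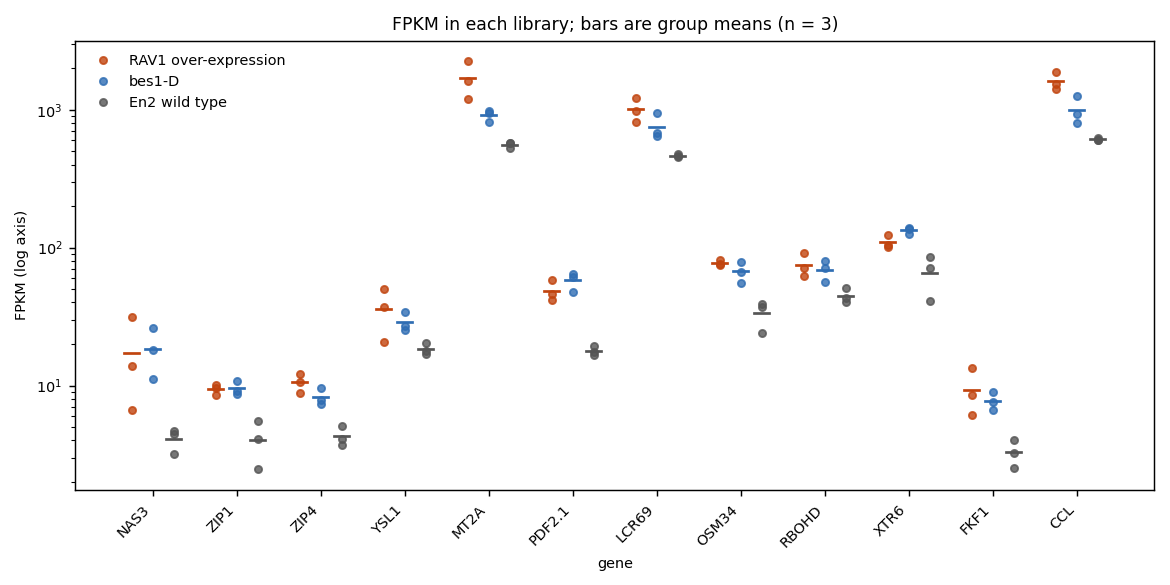
Points are FPKM of 12 members in each library on a log axis, and bars are group means of 3 libraries. NAS3, ZIP1, PDF2.1 and XTR6 have overlapping or near values in both lines above En2, while MT2A and CCL step down from RAV1 over-expression to bes1-D to En2.

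Defensins and similar small cysteine-rich peptides, a class known for antimicrobial members, gave 6 members and the largest differences from En2. AT3G59930 had 137, 98.7 and 404 FPKM in RAV1 over-expression, 12.4, 27.8 and 6.27 FPKM in bes1-D, and 1.46, 5.87 and 3.26 FPKM in En2. AT5G33355 had 38.5, 39.0 and 183 FPKM in RAV1 over-expression, 36.8, 49.8 and 7.44 FPKM in bes1-D, and 2.41, 0 and 1.06 FPKM in En2. Transcripts of these 2 loci are 97.5% identical over 326 bases in the RefSeq annotation, so reads may be divided between them and their separate levels are uncertain. AT3G59930 was higher in RAV1 over-expression, relative to bes1-D, by 3.65 ± 0.68 on the log2 scale (SE, limma adjusted p = 0.00506), and AT5G33355 was not called (1.39, 95% interval -0.67 to 3.45).

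PDF2.1, another defensin, was the member of this class with the higher mean in bes1-D. It had 46.1, 41.4 and 58.2 FPKM in RAV1 over-expression, 61.6, 47.7 and 64.5 FPKM in bes1-D, and 17, 16.8 and 19.4 FPKM in En2. Between the lines the values overlapped (-0.25, 95% interval -0.57 to 0.07), and a call was made with trimmed-mean scaling alone. LCR69, which lies 9063 bases from PDF2.1 on chromosome 2 with 2 genes between them, had 974, 814 and 1226 FPKM in RAV1 over-expression, 676, 645 and 941 FPKM in bes1-D, and 456, 460 and 474 FPKM in En2. LCR69 was not called with all libraries and was called without RAV1 over-expression replicate 2 (0.56, limma adjusted p = 0.0262) or without bes1-D replicate 3 (0.58, adjusted p = 0.0157). PDF1.4 had 58.9, 52.1 and 126 FPKM in RAV1 over-expression, 11.9, 19.4 and 22.3 FPKM in bes1-D, and 8.33, 11.4 and 9.78 FPKM in En2, and AT1G34047 had 138.5, 157 and 266 FPKM in RAV1 over-expression, 53.2, 78.2 and 30.1 FPKM in bes1-D, and 27.2, 19.1 and 22.4 FPKM in En2. Both were called between the lines (2.01 ± 0.33 and 1.82 ± 0.34). AT1G34047 is overlapped over 69.0% of its length by a gene on the opposite strand, and the sources used here do not say whether strand was used. Of 22 defensin-like and knottin peptides tested, 10 were called higher in RAV1 over-expression, relative to bes1-D, and 2 lower.

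Seed and desiccation proteins gave 10 members, and at all 10 replicate 3 was the highest and replicate 2 the lowest RAV1 over-expression library. DELTA-VPE, a cysteine protease known from the seed coat, had 75.7, 58.0 and 81.5 FPKM in RAV1 over-expression, 5.91, 8.49 and 10.2 FPKM in bes1-D, and 3.79, 3.65 and 2.99 FPKM in En2. The lines did not overlap, and the difference between them was 3.00 ± 0.18 on the log2 scale (SE, limma adjusted p = 9.2e-06). LEA4-5, a late embryogenesis abundant protein of the kind that protects drying cells, had 19.3, 5.16 and 33.8 FPKM in RAV1 over-expression, 1.98, 2.45 and 2.45 FPKM in bes1-D, and 1.35, 0.74 and 0.91 FPKM in En2. AT1G04560, an AWPM-19-like membrane protein, had 12.96, 5.04 and 24.1 FPKM in RAV1 over-expression, 1.45, 1.31 and 1.60 FPKM in bes1-D, and 0.30, 0.36 and 0.82 FPKM in En2. Both were called between the lines (2.31 ± 0.51 and 2.39 ± 0.42). LEA18 had 28.6, 13.5 and 65.2 FPKM in RAV1 over-expression, 7.30, 11.3 and 10 FPKM in bes1-D, and 5.02, 4.91 and 5.52 FPKM in En2. Its call (1.56 ± 0.45, adjusted p = 0.0247) was lost without RAV1 over-expression replicate 1 (1.58, adjusted p = 0.059) and without bes1-D replicate 1 (1.39, adjusted p = 0.0725) and in a fit of the 6 libraries of both lines (adjusted p = 0.0611), and its difference was 1.00 without RAV1 over-expression replicate 3.

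OLEO2, which coats seed oil bodies, had 14.1, 4.39 and 36.2 FPKM in RAV1 over-expression, 3.87, 4.02 and 5.79 FPKM in bes1-D, and 1.72, 2.27 and 3.51 FPKM in En2. Replicate 2 of RAV1 over-expression lay within the bes1-D range, and OLEO2 was called between the lines when that library was left out (2.11, limma adjusted p = 0.00254). TIP3;1, the vacuolar aquaporin of seeds, had 5.64, 3.36 and 20.02 FPKM in RAV1 over-expression, 3.59, 5.17 and 8.34 FPKM in bes1-D, and 3.2, 2.96 and 2.67 FPKM in En2. AT3G02480, another LEA protein, was nearly level in the lines, with 78.3, 61.2 and 84.7 FPKM in RAV1 over-expression, 55.6, 82.8 and 78.5 FPKM in bes1-D, and 46.4, 25.4 and 38.7 FPKM in En2. AT1G13930, annotated as an oleosin-B3-like protein, was the most abundant of the group at 759.5 FPKM in RAV1 over-expression, 650.1 FPKM in bes1-D and 424 FPKM in En2, and was called only without RAV1 over-expression replicate 2 (0.36, adjusted p = 0.0324).

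In RAV1 over-expression, but not in bes1-D, the summed markers of seed maturation stood above En2 together with this group. The summed level of 11 markers of seed maturation, which include OLEO2, was 459.5, 138 and 1692 FPKM in RAV1 over-expression, 27.9, 21.9 and 35.8 FPKM in bes1-D, and 35.8, 26.7 and 18.1 FPKM in En2. CRU3 and CRA1 led the sum, with means of 337 and 278 FPKM in RAV1 over-expression. All RAV1 over-expression libraries exceeded all En2 libraries for 8 of the 11, and all bes1-D libraries did so for 1. That 1 marker was OLEO2, which as a member meets this condition in both lines by the rule. In bes1-D the means of GEA6, OLEO1 and OLEO2 lay 0.65, 0.54 and 0.68 above En2. Those of PAP85, EM1, CRU3, SESA1, SESA2, SESA3 and SESA4 lay below En2. No marker was at 0 in every library. The part of these transcripts in the members' levels was not tested.

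The promoters of 5 of the seed and desiccation members held both an abscisic acid response element (ABRE, ACGTGGC or ACGTGTC) and a G-box (CACGTG), which can share letters. Over all members an ABRE was found in 15 promoters (16.9%, against 9.51% of all promoters) and a G-box in 15 (16.9%, against 9.82%). The stretch of 80 bases nearest to the gene start that holds a match is shown for each of the 5, with ABRE and G-box letters of either strand in capitals, 5′ to 3′ on the gene's strand (RefSeq, TAIR10.1). They lie at chr2:14863425-14863504 (LEA18, minus), chr5:2090441-2090520 (LEA4-5, minus), chr1:11774362-11774441 (AtLEA4-1, plus), chr1:1244856-1244935 (AT1G04560, plus) and chr2:12181038-12181117 (AT2G28490, minus).
LEA18: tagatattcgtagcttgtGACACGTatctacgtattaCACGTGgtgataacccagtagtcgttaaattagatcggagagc
LEA4-5: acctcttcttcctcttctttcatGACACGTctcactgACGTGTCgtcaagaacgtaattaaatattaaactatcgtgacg
AtLEA4-1: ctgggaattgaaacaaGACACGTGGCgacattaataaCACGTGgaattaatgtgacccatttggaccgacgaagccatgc
AT1G04560: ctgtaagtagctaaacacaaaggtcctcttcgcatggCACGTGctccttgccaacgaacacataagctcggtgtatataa
AT2G28490: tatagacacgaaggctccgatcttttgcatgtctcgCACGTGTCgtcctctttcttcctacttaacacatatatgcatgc

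AtLEA4-1, another LEA protein, and AT2G28490, of the cupin family to which seed storage globulins belong, had low levels in En2. AtLEA4-1 had 7.24, 2.86 and 15.9 FPKM in RAV1 over-expression, 2.76, 2.45 and 3.94 FPKM in bes1-D, and 1.93, 1.60 and 1.23 FPKM in En2. AT2G28490 had 3.58, 2.08 and 10.1 FPKM in RAV1 over-expression, 2.07, 2.06 and 3.27 FPKM in bes1-D, and 1.33, 1.13 and 0.92 FPKM in En2. Neither was called with all libraries, and both were called without RAV1 over-expression replicate 2 (1.56 and 1.06, limma adjusted p = 0.00312 and 0.0321). Of the wider late embryogenesis abundant family 61 genes were tested and 4 were members, while 21 were called higher in RAV1 over-expression, relative to bes1-D, and 10 lower.

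Cell wall genes gave 5 members. XTR6, a xyloglucan endotransglycosylase that cuts and rejoins wall xyloglucan, had 124, 101 and 104 FPKM in RAV1 over-expression, 126, 136 and 138 FPKM in bes1-D, and 41.2, 70.7 and 85.2 FPKM in En2. Its En2 values spread more than those of either line, and the lines did not differ by the test (-0.28, 95% interval -0.77 to 0.20). XTH24, of the same enzyme family, had 452, 355 and 503 FPKM in RAV1 over-expression, 299, 468 and 379 FPKM in bes1-D, and 219, 177 and 286 FPKM in En2. EXLA1, an expansin-like protein, had 72.6, 59.9 and 64.6 FPKM in RAV1 over-expression, 75.1, 71.6 and 81.7 FPKM in bes1-D, and 43.7, 40.1 and 42.4 FPKM in En2. EXLA1 was thus among the 19 members with a negative difference between the lines, and it was called lower in RAV1 over-expression with trimmed-mean scaling and quantile normalization but not on the deposited scale. The pectin methylesterase ATPMEPCRB had 86.6, 59.2 and 97.4 FPKM in RAV1 over-expression, 43.0, 42.7 and 57.6 FPKM in bes1-D, and 22.7, 28.1 and 31.9 FPKM in En2, and was called between the lines (0.73 ± 0.20, limma adjusted p = 0.0159). Without RAV1 over-expression replicate 1 or 3 or bes1-D replicate 1 or 2 its adjusted p was 0.0577, 0.0533, 0.0531 and 0.0524, with log2 differences of 0.67, 0.59, 0.67 and 0.66, and with trimmed-mean scaling it was 0.0557 (log2 difference 0.56). In the list of 20 wall loosening genes, which holds XTR6 and XTH24, 2 were called higher in RAV1 over-expression, relative to bes1-D, and 14 lower, with a median of -0.71.

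Defence and oxidative signalling gave 9 members. OSM34, an osmotin of the PR-5 type, had 75.1, 76.7 and 81.4 FPKM in RAV1 over-expression, 78.6, 67.0 and 55.9 FPKM in bes1-D, and 37.3, 24.2 and 38.7 FPKM in En2. RBOHD, the NADPH oxidase that makes the oxidative burst of immune responses, had 71.5, 91.1 and 62.1 FPKM in RAV1 over-expression, 56.4, 80.5 and 71.0 FPKM in bes1-D, and 40.1, 43.3 and 51.1 FPKM in En2. WRKY48, a transcription factor of the WRKY family, had 10.5, 5.23 and 5.62 FPKM in RAV1 over-expression, 5.36, 7.45 and 5.61 FPKM in bes1-D, and 2.55, 3.11 and 2.88 FPKM in En2. For these 3 genes the lines overlapped and the test made no call. The receptor kinase CRK41 and the catalase CAT1 were likewise not called, with means of 6.32 and 44.2 FPKM in RAV1 over-expression, 7.10 and 37.7 FPKM in bes1-D, and 3.48 and 21.5 FPKM in En2.

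SARD1, a regulator that switches on salicylic acid synthesis, had 9.96, 3.75 and 13.3 FPKM in RAV1 over-expression, 2.98, 3.81 and 2.70 FPKM in bes1-D, and 1.28, 1.07 and 1.22 FPKM in En2. RAV1 over-expression replicate 2 lay within the bes1-D range. The call between the lines (1.13 ± 0.33, limma adjusted p = 0.0239) was lost without RAV1 over-expression replicate 1 (0.99, adjusted p = 0.0823), RAV1 over-expression replicate 3 (0.80, adjusted p = 0.0714), bes1-D replicate 1 (1.1, adjusted p = 0.0628) or bes1-D replicate 3 (1.05, adjusted p = 0.0707). It was also lost with quantile normalization (0.94, adjusted p = 0.0593) and in a fit of the 6 libraries of both lines (adjusted p = 0.0559). The legume lectin AT5G03350 had 15.6, 1.27 and 25.3 FPKM in RAV1 over-expression, 1.64, 2.32 and 2.75 FPKM in bes1-D, and 0.66, 0.77 and 0.50 FPKM in En2. Its RAV1 over-expression values lay far apart, and it was called only without replicate 2 of that line (2.70, adjusted p = 5.93e-05). SARD1 was the member among 13 salicylic acid defence genes tested, of which 9 were called higher in RAV1 over-expression, relative to bes1-D, and 1 lower. Over those 13 the median difference from En2 was 0.59 in RAV1 over-expression, with -0.10 in bes1-D.

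Hormone genes gave 6 members, of which 3 were called higher in RAV1 over-expression, relative to bes1-D. The share called higher over loci with a highest group mean of at least 5 FPKM was 31.0%. GA2OX2, which inactivates gibberellins, had 20.4, 12.3 and 24.2 FPKM in RAV1 over-expression, 8.18, 8.59 and 7.89 FPKM in bes1-D, and 3.21, 3.93 and 4.35 FPKM in En2. The lines did not overlap and differed by 1.07 ± 0.21 on the log2 scale (SE, limma adjusted p = 0.0033). GH3.3, which joins auxin to amino acids, had 28.7, 19.3 and 44.3 FPKM in RAV1 over-expression, 7.72, 10.5 and 7.13 FPKM in bes1-D, and 3.46, 4.46 and 6.06 FPKM in En2, and the lines differed by 1.69 ± 0.28 (adjusted p = 0.00172). The esterase MES8 averaged 9.35 FPKM in RAV1 over-expression, 4.45 FPKM in bes1-D and 2.33 FPKM in En2 and was also called (0.90 ± 0.22). Its transcript is 88.4% identical over 819 bases to ACL, which had 93.7 to 136 FPKM over the libraries, so the level of MES8 is less certain. AOC2, an allene oxide cyclase of jasmonate synthesis, had 762, 666 and 903 FPKM in RAV1 over-expression, 522, 637 and 678 FPKM in bes1-D, and 414, 398 and 391 FPKM in En2. AOC2 was not called with all libraries on the deposited scale and was called without RAV1 over-expression replicate 2 (0.44, adjusted p = 0.0239) or bes1-D replicate 3 (0.42, adjusted p = 0.0365), and its neighbour in sequence AOC1, 87.7% identical over 910 bases, averaged 225 FPKM in RAV1 over-expression, 246 FPKM in bes1-D and 159.6 FPKM in En2. CRF6, a cytokinin response factor, averaged 16.0 FPKM in RAV1 over-expression, 17.55 FPKM in bes1-D and 8.94 FPKM in En2.

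The lists of these pathways held no other member. GA2OX2 was the member among 13 gibberellin genes tested, of which 5 were called higher in RAV1 over-expression, relative to bes1-D, and none lower, and the median difference from En2 over the 13 was 0.30 in RAV1 over-expression, with -0.02 in bes1-D. GH3.3 was the member among 19 auxin response genes tested, with 4 called higher and 7 lower between the lines. AOC2 was the member among 13 jasmonate synthesis genes, with 5 called higher and 2 lower.

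Genes known for afternoon or cold phasing gave 5 members, of 11 tested from a list added after values were seen. Of the 11, 1 was called higher in RAV1 over-expression, relative to bes1-D, and 2 lower. FKF1, a blue light receptor of the clock that targets repressors of flowering, had 8.57, 6.08 and 13.3 FPKM in RAV1 over-expression, 7.57, 8.98 and 6.63 FPKM in bes1-D, and 2.52, 3.24 and 4.05 FPKM in En2. The lines overlapped (0.19, 95% interval -0.34 to 0.72). CCL, a CCR-like protein, had 1539, 1403 and 1883 FPKM in RAV1 over-expression, 798, 932 and 1257 FPKM in bes1-D, and 628, 606 and 604 FPKM in En2. The lines did not overlap, and CCL was higher in RAV1 over-expression, relative to bes1-D, by 0.71 ± 0.16 (SE, limma adjusted p = 0.00742). COL9, a CONSTANS-like factor, had 19.1, 15.7 and 24.3 FPKM in RAV1 over-expression, 12.2, 16.95 and 15.0 FPKM in bes1-D, and 9.53, 7.21 and 8.86 FPKM in En2. AT4G33980 averaged 23.1 FPKM in RAV1 over-expression, 16.1 FPKM in bes1-D and 9.48 FPKM in En2. COL9 and AT4G33980 were called only without RAV1 over-expression replicate 2 (0.53 and 0.69, adjusted p = 0.0346 and 0.0204). The DNAJ protein AT5G23240 averaged 11.9 FPKM in RAV1 over-expression, 3.87 FPKM in bes1-D and 2.11 FPKM in En2, and was likewise called only without that library (1.75, adjusted p = 0.000746).

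Of 18 clock genes tested FKF1 was the member, 4 were called higher in RAV1 over-expression, relative to bes1-D, and 2 lower, and the median difference from En2 was 0.15 in RAV1 over-expression, with 0.07 in bes1-D. TOC1 averaged 42.4 FPKM in RAV1 over-expression, 27.4 FPKM in bes1-D and 19.0 FPKM in En2, with 1.1 and 0.50 above En2 in the lines. CDF1, which FKF1 is known to target, averaged 1.81 FPKM in RAV1 over-expression, 3.65 FPKM in bes1-D and 6.67 FPKM in En2. No source used here names the time of day of sampling, and its part in these levels was not tested.

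The evening element AAAATATCT, the letters bound by morning MYB factors of the clock, was found in the promoters of 9 members (10.1%), against 4.3% of all promoters, on either strand. MT2A held 2 copies within 80 bases, and MEE14, a member annotated as maternal effect embryo arrest 14, held 1. Among the phased members FKF1, CCL and COL9 held it, and AT4G33980 and AT5G23240 did not. FKF1 and COL9 each held 2 copies in the 500 bases. The other holders were PDF2.1, ACR7, AT2G29340 and AT3G03170. The windows of 5 of the 9 are shown, those of FKF1, CCL and COL9 and of the abundant MT2A and MEE14. These windows have the element in capitals, in its own letters or as its reverse complement, 5′ to 3′ on the gene's strand (RefSeq, TAIR10.1). They lie at chr1:25508417-25508496 (FKF1, plus), chr3:9827553-9827632 (CCL, plus), chr3:2441128-2441207 (COL9, plus), chr3:2890587-2890666 (MT2A, minus) and chr2:6922184-6922263 (MEE14, minus).
FKF1: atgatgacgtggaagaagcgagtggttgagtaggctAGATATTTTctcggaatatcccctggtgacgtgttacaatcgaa
CCL: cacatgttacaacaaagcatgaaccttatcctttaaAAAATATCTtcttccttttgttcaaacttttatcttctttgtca
COL9: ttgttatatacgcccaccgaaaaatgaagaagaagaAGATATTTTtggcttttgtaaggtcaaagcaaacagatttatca
MT2A: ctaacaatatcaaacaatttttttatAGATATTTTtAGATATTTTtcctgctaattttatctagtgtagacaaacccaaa
MEE14: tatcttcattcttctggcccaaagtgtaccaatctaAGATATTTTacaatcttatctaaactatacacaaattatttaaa

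Other motifs were counted in the same promoters of 500 bases on both strands. The W-box (TTGACC or TTGACT), known as the site of WRKY factors, was found in 58.4% of member promoters and 45.1% of all promoters. The CAMTA core (CGCGTT or CGCGTG) was found in 16.9% and 8.35%, and the TGA core (TGACG) in 34.8% and 32.6%. The CAACA letters bound by the AP2 domain of RAV1 stood in 61.8% of member promoters and 73.7% of all, and the CACCTG letters bound by its B3 domain in 1.12% and 5.87%. The BRRE letters CGTGTG or CGTGCG, known from BES1 and BZR1 targets, stood in 11.2% and 11.8%, and the GCC box (GCCGCC) in 4.49% and 4.36%. These shares describe the letters in this window and were not tested.

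**Figure D4:**
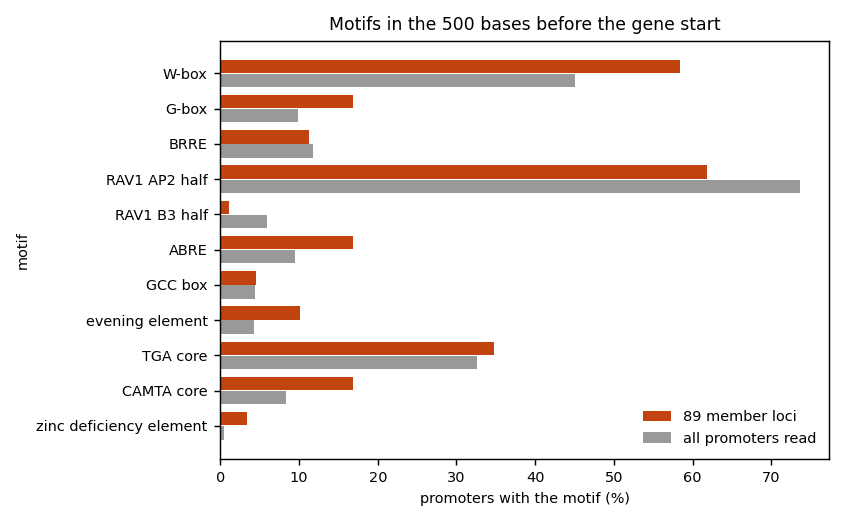
Bars give the percentage of 500-base promoters that hold each motif on either strand, for the 89 members and for all promoters of loci in the table. W-box, G-box, ABRE, evening element and CAMTA core bars are longer for the members, and both RAV1 motif bars are shorter.

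Among the transcription factors, AT3G54730 was the member called lower in RAV1 over-expression, relative to bes1-D. It is annotated as a transcription repressor and had 6.98, 4.43 and 8.58 FPKM in RAV1 over-expression, 12.4, 8.91 and 14.4 FPKM in bes1-D, and 1.92, 1.35 and 1.84 FPKM in En2. The lines differed by -0.77 ± 0.22 on the log2 scale (SE, limma adjusted p = 0.0224). The call was lost without RAV1 over-expression replicate 2 (-0.54, adjusted p = 0.0623), bes1-D replicate 1 (-0.73, adjusted p = 0.0623) or bes1-D replicate 3 (-0.63, adjusted p = 0.0779). Its transcript is 98.2% identical to AT2G19850 over 1259 bases and 99.4% identical to OFP9 over 504 bases, so its level is uncertain. OFP9 had 1.51, 1.42 and 2.64 FPKM in RAV1 over-expression, 4.69, 3.88 and 4.14 FPKM in bes1-D, and 0.16, 0.95 and 0.95 FPKM in En2. AT1G19330, annotated as a histone deacetylase complex subunit, had 28.9, 29.4 and 29.8 FPKM in RAV1 over-expression, 12.0, 14.9 and 16.3 FPKM in bes1-D, and 7.32, 8.02 and 8.53 FPKM in En2, with little spread in any group and a difference of 0.99 ± 0.11 between the lines (adjusted p = 0.000234). NAP, a NAC factor that promotes leaf senescence, averaged 13.2 FPKM in RAV1 over-expression, 14.0 FPKM in bes1-D and 7.41 FPKM in En2, and MYB31 averaged 8.17 FPKM in RAV1 over-expression, 7.12 FPKM in bes1-D and 3.82 FPKM in En2. Neither was called.

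Metabolic enzymes gave 11 members, 6 of them called higher in RAV1 over-expression, relative to bes1-D. Over loci with a highest group mean of at least 5 FPKM the share called higher was 31.0%. The rhodanese protein AT2G17850, of a family that transfers sulfur, had 71.7, 65.9 and 87.4 FPKM in RAV1 over-expression, 9.09, 10.3 and 19.3 FPKM in bes1-D, and 3.4, 3.97 and 6.28 FPKM in En2. The lines did not overlap and differed by 2.51 ± 0.27 on the log2 scale (SE, limma adjusted p = 0.000218). TRI, annotated as a tropinone reductase, had 62.1, 44.3 and 62.9 FPKM in RAV1 over-expression, 25.1, 21.2 and 33.2 FPKM in bes1-D, and 13.7, 12.3 and 13.6 FPKM in En2. AT2G29340, an NAD-dependent dehydratase family protein that begins 579 bases after TRI on the same strand, had 498, 363 and 626 FPKM in RAV1 over-expression, 161, 222 and 214.5 FPKM in bes1-D, and 119.8, 121 and 148 FPKM in En2. Both neighbours were called between the lines (1.07 ± 0.17 and 1.29 ± 0.19). ACR7, with ACT domains that are known to bind amino acids, averaged 27.2 FPKM in RAV1 over-expression, 11.6 FPKM in bes1-D and 6.95 FPKM in En2 (1.18 ± 0.17 between the lines). AT2G41380, a methyltransferase, was called (0.76 ± 0.24, adjusted p = 0.0343), and lost that call without RAV1 over-expression replicate 1 (0.82, adjusted p = 0.0652), RAV1 over-expression replicate 3 (0.48, adjusted p = 0.085), bes1-D replicate 1 (0.67, adjusted p = 0.101) or bes1-D replicate 3 (0.65, adjusted p = 0.105). The call was also lost with quantile normalization (0.60, adjusted p = 0.0874), trimmed-mean scaling (0.58, adjusted p = 0.0965), no filter on low values (adjusted p = 0.0535), a fit of the 6 libraries of both lines (adjusted p = 0.0693) and a replicate block (adjusted p = 0.0651).

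Of the 26 remaining members 6 were called higher in RAV1 over-expression, AT1G51913 among them, against 31.0% of loci with a highest group mean of at least 5 FPKM. ARPN, a plantacyanin (a small blue copper protein), had 61.3, 19.1 and 94.9 FPKM in RAV1 over-expression, 12.6, 14.5 and 10.2 FPKM in bes1-D, and 5.74, 4.23 and 7.92 FPKM in En2. Its call (1.89 ± 0.49, limma adjusted p = 0.0165) was lost without RAV1 over-expression replicate 1 (1.72, adjusted p = 0.0553). AT1G51913, an uncharacterized protein, had 4.81, 2.52 and 8.40 FPKM in RAV1 over-expression and 0.97, 0.79 and 0.79 FPKM in bes1-D, and was the member listed at 0 in all En2 libraries. It reached 1 FPKM in RAV1 over-expression alone and so passed the filter on low values through the group where it is high, and its call supports nothing further. MLP28, of the major latex protein family, averaged 154.6 FPKM in RAV1 over-expression, 119.7 FPKM in bes1-D and 77.3 FPKM in En2, and its call (0.36 ± 0.10, adjusted p = 0.0138) was lost without RAV1 over-expression replicate 1 (0.29, adjusted p = 0.0645) and with trimmed-mean scaling (0.18, adjusted p = 0.186). The MLP28 transcript is 88.5% identical over 966 bases to MLP34, which had 32.6 to 162 FPKM over the libraries, so the level of MLP28 is less certain. AT5G19240, a glycoprotein with a lipid anchor, and AILP1, an aluminum induced protein, were nearly level in the lines, at 174 and 241 FPKM in RAV1 over-expression, 152.5 and 251 FPKM in bes1-D, and 75.2 and 135.5 FPKM in En2. AILP1 is overlapped over 95.0% of its length by a gene on the opposite strand that averaged 23.2 FPKM.

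Pairs of neighbouring members were found on chromosome 2, which held 24.7% of the members and 15.4% of the loci with a highest group mean of at least 5 FPKM. Beside TRI with AT2G29340 and LCR69 with PDF2.1, these were AT2G05640 with AT2G05642, separated by 970 bases, and AT2G15880 with MEE14, separated by 49 bases. AT2G05642 had 8.42, 10.9 and 11.2 FPKM in RAV1 over-expression, 9.83, 11.1 and 7.87 FPKM in bes1-D, and 2.85, 2.34 and 3.95 FPKM in En2, and AT2G05640 averaged 5.74, 4.75 and 1.82 FPKM in the same groups. MEE14 had 376, 395 and 437 FPKM in RAV1 over-expression, 313, 431 and 523 FPKM in bes1-D, and 232, 239 and 280 FPKM in En2, with no call between the lines. Members had a median transcript length of 1370 bases, against 1710 bases over those loci, and 7.87% of members against 1.98% of those loci were shorter than 600 bases.

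The replicates of RAV1 over-expression did not contribute alike. Replicate 3 was the highest library of that line at 67 of 89 members (75.3%, against 41.8% of loci with a highest group mean of at least 5 FPKM), and replicate 2 was the lowest at 64 (71.9%, against 39.8%). The order of replicate 3, then 1, then 2 held at 56 members (62.9%, against 27.6%), and it is also the order of RAV1 itself and of the summed seed markers. In bes1-D, replicate 2 was the highest library at 41 members (46.1%, against 28.3%) and replicate 1 the lowest at 37 (41.6%, against 41.1%). These orders describe 3 libraries a group, and what they follow was not tested.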

How the data were processed

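The authors deposited FPKM for 9 libraries at 25199 loci. The submitters' processing notes name FastQC 0.10.1, TopHat2, Cufflinks 2.1.1 and TAIR10, and the labels name paired reads of 100 bases. No source used here states a scaling between libraries or the use of strand. Depth is unknown, so no counting interval is given, and the number of libraries limits precision. Loci were matched by identifier to RefSeq TAIR10.1 (25135 matched, all 89 members among them), which also gave promoters of 500 bases before each gene start and transcript identity (blastn). RAV1 over-expression minus bes1-D was tested with limma 3.58.1 in R 4.3.3 (trend and robust) on log2(FPKM + 1), with group means of 9 libraries (6 residual degrees of freedom), at loci that reached 1 FPKM in 3 or more libraries. Tests were two-sided, and a call needed an adjusted p (Benjamini-Hochberg) under 0.05. Log2 differences on this scale understate the change of low loci. The labels call the samples biological replicates and say no more, so p-values measure the spread between these samples.

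The members, gene lists, families, roles and motifs were chosen with earlier results of these data known. Lists for metal transport, afternoon and cold phase, allene oxide cyclases, late embryogenesis abundant proteins, defensin-like peptides and legume lectins, and the zinc element, were added after values were seen. Named members were the 20 with the largest smaller difference from En2, the 8 most abundant, the 8 largest called differences between the lines in each direction, up to 4 of each list, and the loci beside the 0.6 limit. Other genes named (YSL1, ZIP4, AT3G24450, LEA18, AtLEA4-1, AT2G28490, MES8, COL9, AT4G33980, AT5G23240, AT1G19330, TRI, ACR7, AT2G41380, AT1G51913, MLP28, AILP1, AT2G15880, AT3G03170 and all that are not members) were chosen after their values were seen. 1 blank value was left out. Python 3.11.15, numpy 2.4.6, pandas 2.3.3 and matplotlib 3.10.9 were used.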

Additional observations from a re-analysis of the deposited data

How the results depend on the processing

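The 89 members became 39 with a least difference of 0.8 and 213 with 0.4. Leaving out 1 library at a time gave 80 to 151, and the other settings (pseudocounts, scaling, least mean) gave 66 to 121. Trimmed-mean scaling shared 78 of the 89 and quantile normalization 79. Leaving out 1 library gave 21 to 42 members called higher in RAV1 over-expression, relative to bes1-D, and 0 to 2 called lower. Over all loci, 19516 to 19664 tested, the same fits called 3534 to 5289 higher and 1627 to 2183 lower. Members called lower numbered 5 with trimmed-mean scaling and 3 with quantile normalization, against 1 on the deposited scale. Over all loci 3018, 2965 and 2084 were called lower in the same settings. Of the 29 calls, 20 held under every setting run, 8 were lost under at least 1, and that of AT1G51913 was not lost but could not be tested without a RAV1 over-expression library or with a filter of 5 FPKM. SARD1 was not tested with that filter either. Among members called between the lines in the main fit or under the other setting, no difference changed sign. Members called in neither were not covered by this count, and their small differences can change sign with the scaling. Correlations of same-numbered deviations between the groups were -0.05 to 0.20. Differently numbered libraries were not compared, so these values cannot decide whether replicate numbers pair the libraries. With a replicate block 31 members were called higher, 27 of them also called higher in the main fit, and 1 lower. That fit called 5146 of 19740 loci higher and 2062 lower. The cause of these changes was not tested. Depth could not be assessed from FPKM.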
